A study of Mus musculus with 8 samples.

Results

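Type I interferon-stimulated genes are the antiviral effectors, nucleic-acid sensors and regulators that interferon induces, and 38 of them, chosen by symbol from a list, were examined among the 23084 genes of the deposited table. All 38 had a row. RNA was sequenced from myeloid cells sorted from the spleens of C57BL/6 mice 6 to 8 weeks old. The mice were wt or carried a myeloid-specific knockout of Lmna (Lmna KO, named LmnaMyeKO in the study), in which LysM-Cre, a Cre recombinase driven by the lysozyme 2 gene, deletes floxed Lmna in monocytes, macrophages and granulocytes. Monocytic CD11b+Ly6C+ and granulocytic CD11b+Ly6G+ cells of each genotype gave 4 groups of 2 samples, 8 samples in all. The subset was read from the sample titles, because the label for cell markers reads CD11b+Ly6C+ throughout. Whether the 2 samples of a group came from separate mice or pools is not given in the sources used here. The study does not state whether the mice used for RNA sequencing bore tumours. Several of its other experiments used spleen cells of tumour-bearing mice.

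The table was made for a comparison of wt with Lmna KO cells, and neither its name nor its columns name the subset compared. Beside the columns of that comparison, which are the authors' own result and were not used here, it holds 1 measurement per gene, the authors' mean of counts divided by a size factor per library. The levels below are therefore means over libraries. They have no replicate error, they allow no test between genotypes or subsets, and no difference between the 4 groups is reported. The lowest means of the table show how many libraries were averaged. If the counts behind them were whole numbers, they are sums of a few reads, each worth a fixed step per library. The authors' counts were estimates, so a read in these sums means 1 unit of count and not necessarily 1 sequenced read. For each assumed number, the steps were set from the lowest means, taken as 1 read in the deepest library plus 1 in another. Assuming 8 libraries, all 1138 distinct low means were whole-read sums, while any other number from 3 to 10 gave at most 25.1%. The shares for the other numbers hold only for steps set in this way. The number 8 equals the number of samples of both subsets and both genotypes. The size factors, which scale each library for its depth, lay between 0.796 and 1.048 in 7 libraries, and the other had 1.913. The libraries solved in this way carry no label, and the values of the interferon-stimulated genes in each could not be solved because too many reads lie behind them.

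The defining markers of the sorted cells were abundant in this mean. Itgam, which encodes CD11b, had 11546 normalized counts per kilobase of transcript, Ly6c2 had 5378 and Ly6g had 8346, against a median of 22.5 over all annotated genes. The 10 neutrophil markers had a median of 85972 per kilobase (range 8346 to 1397989) and the 10 monocyte markers 1086 (157 to 30676). The monocyte list includes Itgam, although CD11b defines both sorted subsets, and its highest gene was Chil3. In the study's supplement, the promoter of Chil3 had more of the histone mark H3K4me3 in granulocytes than in monocytes. Markers of other spleen cells were present too. The medians were 6603 for 10 macrophage markers, 1138 for 10 B cell markers, 208 for 10 T and NK cell markers and 76.1 for 10 plasmacytoid dendritic cell markers. All 10 genes of each list were listed, with ranges per kilobase of 428 to 13595 for macrophages, 131 to 4065 for B cells, 27.0 to 539 for T and NK cells, and 20.1 to 2967 for plasmacytoid dendritic cells. The last list was uneven. Ly6d, Spib and Bst2 led it with 2967, 1091 and 1031, and every other gene of it had at most 190. Among those others Siglech had 50.4 and Ccr9 20.1, the latter under the median of all genes. Whether plasmacytoid dendritic cells were present was not tested. Bst2 belongs both to this list and to the interferon-stimulated genes. The part of these cells in the levels below was not tested, and in RNA from whole sorted populations fewer cells of a type and less RNA per cell cannot be told apart.

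Type I interferons bind the receptor made of IFNAR1 and IFNAR2, whose kinases JAK1 and TYK2 activate the complex ISGF3 that holds IRF9. This complex binds the interferon-stimulated response element in the promoters of its targets. The products detect viral nucleic acid, block translation, degrade RNA or keep viruses from entering and leaving cells, and myeloid cells keep a basal level of many of them without infection.

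The promoters of the interferon-stimulated genes were searched first for this element. Its core was written as GAAANNGAAA, which reads TTTCNNTTTC on the other strand, and both strands were searched in RefSeq promoter windows on GRCm38.p6, each from 250 bases before to 50 bases after an annotated transcription start. Windows were given for 28 of the 38 genes. The genes without one were Parp14, Zbp1, Rtp4, Mx1, Dhx58, Mx2, Parp9, Ifi27l2a, Usp18 and Oas2. The core was found in 16 of the 28 genes (57.1%), and in 3.99% of all 27025 genes with a window, or 3.94% of those listed in the expression table. The gamma-activated site TTCNNNGAA, a palindrome that mediates responses to interferon gamma, was in 7 of the 28 (25%) against 9.55% of all genes. A match describes the letters of the window and is not evidence that a factor binds there.

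The following stretches show the core in its setting in 10 of the 16 genes, chosen to show paired family members, overlapping cores and cores before the start. Those of Ddx58, Eif2ak2, Ifih1, Ifitm3, Slfn5 and Trim30a are not printed, among them all cores after the start. The core is in capitals, each stretch reads 5′ to 3′ on the strand of its gene, and overlapping cores run together as 1 block.
Isg15, chr4:156200860-156200911, minus strand: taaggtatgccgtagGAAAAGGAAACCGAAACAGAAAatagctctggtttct
Ifit1, chr19:34640770-34640828, plus strand: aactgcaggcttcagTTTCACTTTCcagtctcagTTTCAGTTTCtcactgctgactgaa
Ifit3, chr19:34583358-34583431, plus strand: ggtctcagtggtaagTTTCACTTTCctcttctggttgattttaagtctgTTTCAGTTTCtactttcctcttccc
Ifit3b, chr19:34607754-34607827, plus strand: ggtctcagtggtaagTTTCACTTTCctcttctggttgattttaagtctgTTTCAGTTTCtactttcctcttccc
Oas1a, chr5:120907515-120907560, minus strand: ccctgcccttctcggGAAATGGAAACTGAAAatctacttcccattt
Oas1g, chr5:120887601-120887646, minus strand: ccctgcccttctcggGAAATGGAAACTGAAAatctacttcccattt
Oas3, chr5:120777710-120777749, minus strand: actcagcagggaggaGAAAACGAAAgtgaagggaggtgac
Bst2, chr8:71537572-71537617, minus strand: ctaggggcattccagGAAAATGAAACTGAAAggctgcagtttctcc
Rsad2, chr12:26456548-26456587, minus strand: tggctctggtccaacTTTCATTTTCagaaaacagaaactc
Slfn8, chr11:83020834-83020873, minus strand: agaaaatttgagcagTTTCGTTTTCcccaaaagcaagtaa

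The Isg15 promoter held 3 overlapping cores, from 78 to 56 bases before the start. Oas1a, Oas1g and Bst2 each held 2 overlapping cores, and Ifit1, Ifit3 and Ifit3b each held 2 separate ones on the other strand. The stretches of Ifit3 and Ifit3b were identical in 74 of 74 bases, and those of Oas1a and Oas1g in 46 of 46. The core GAAACTGAAA was shared by 6 genes, namely Bst2, Ifit1, Ifit3, Ifit3b, Oas1a and Oas1g. GAAAACGAAA was shared by Eif2ak2, Oas3 and Slfn8.

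The windows of the 28 genes held 26 cores at distinct positions, 20 of them wholly before the start, where the farthest began 188 bases before it. The cores of Ifitm3, Ddx58, Eif2ak2, Ifih1 and, at 1 of its starts, Trim30a lay after the annotated start of the window. On the strand of the gene there were 15 cores and on the other strand 11. The start lay within an annotated transcript of the same gene in 26 of 34 windows. The core was not found in the windows of Irf7, Irf9, Ifit2, Oasl1, Oasl2, Isg20, Cmpk2, Samd9l, Herc6, Ifi35, Ifi44 and Xaf1. The gamma-activated site was found in Bst2, Eif2ak2, Ifi35, Ifit2, Ifitm3, Isg20 and Oas1a, so that Ifit2, Ifi35 and Isg20 held this site and not the other core.

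**Figure D1:**
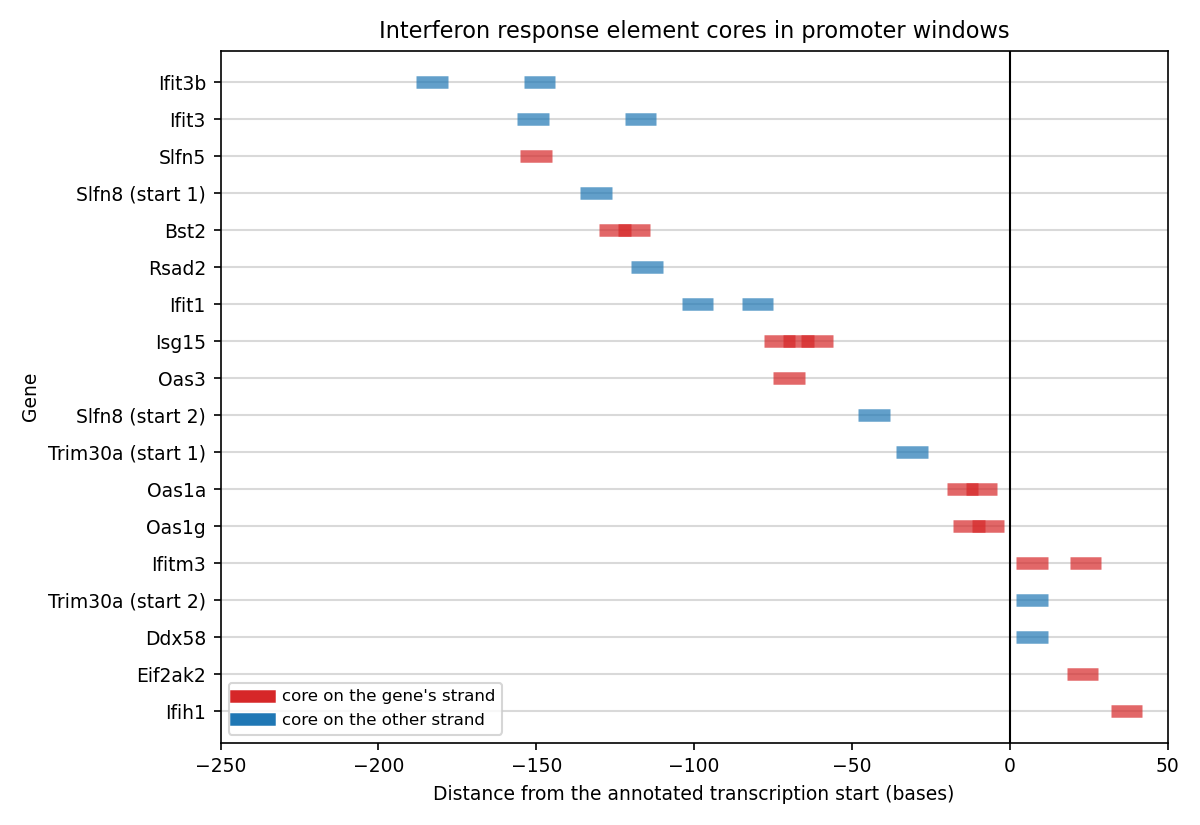
Position of each match to GAAANNGAAA in the promoter windows of 16 interferon-stimulated genes, in bases from the annotated start (vertical line). Each bar is 1 core, red on the strand of the gene and blue on the other; Slfn8 and Trim30a each have cores at 2 starts, and the Slfn8 bars are the same core seen from both.

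The 16 genes with it had a median of 962 normalized counts per kilobase (range 262 to 13776), and the 12 without it 963 (119 to 2457). Over merged exons the medians were 837 and 632.

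All 38 interferon-stimulated genes lay above the median of annotated genes in normalized counts per kilobase, the mean divided by the length of the longest annotated transcript. They ranged from 35.9 for Mx2 to 13776 for Ifitm3, a 383-fold range, with a median of 859 that stood at the 92.4th percentile of all genes. By rank, 22 of the 38 were in the top 10% and 35 in the top 25%. Since protein-coding genes are higher than the rest of the table, their own median of 82.7 is the nearer background, and Mx2 was under it. Together the 38 held 0.479% of the summed mean of 25236459 normalized counts, and the 5 with the highest means held 39.6% of that share. Roughly 712 counts over the 8 libraries lay behind the lowest, Mx2 with a mean of 89.0, and roughly 104773 behind the highest, Samd9l with 13097. Counting error alone is therefore about 3.75% for Mx2 and smaller for the others. The spread between libraries is not known.

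**Figure D2:**
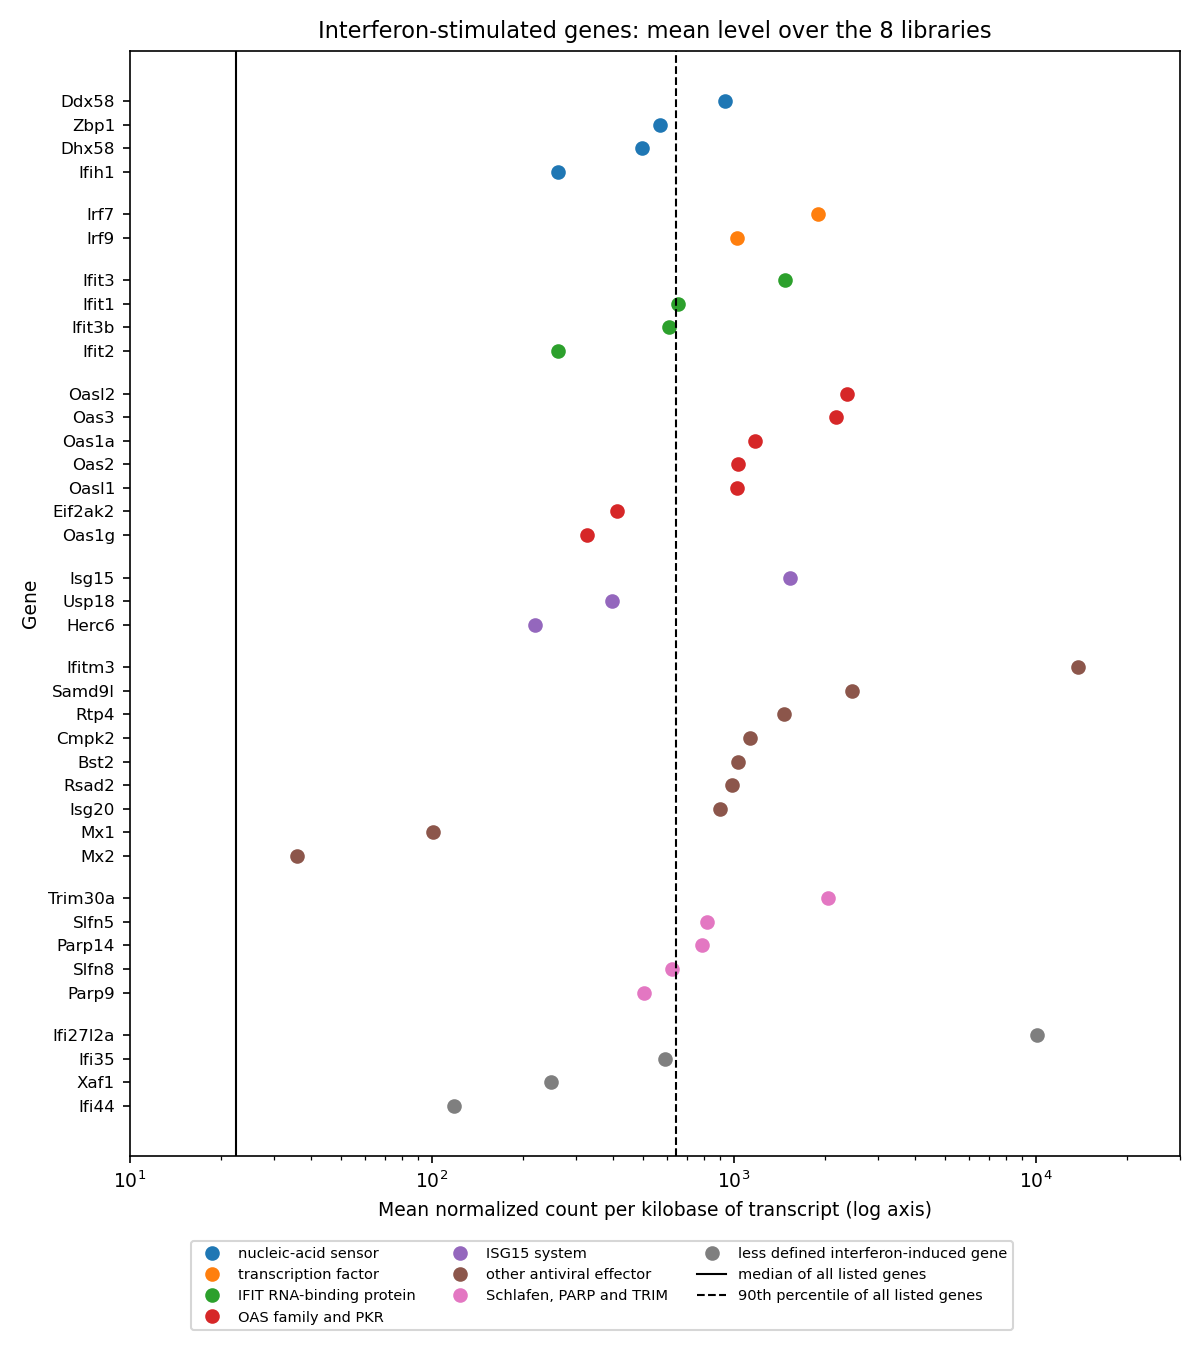
Mean normalized count per kilobase of transcript (log axis) for each of the 38 interferon-stimulated genes, grouped by role; each point is the authors' mean over 8 libraries divided by transcript length, with no error available. All points lie to the right of the median of all listed genes (solid line, 22.5), and 22 lie past the 90th percentile (dashed line).

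The 4 sensors of viral nucleic acid had a median of 534 per kilobase, against 859 for all 38 genes. Ddx58, which encodes the RNA helicase RIG-I, had a mean of 3637 normalized counts and 939 per kilobase. Ifih1, which encodes MDA5, the sensor of long double-stranded RNA, had 262 per kilobase, and Dhx58, which encodes the related helicase LGP2, had 498. Zbp1, a sensor of Z-form nucleic acid that can trigger necroptosis, had 571. The order depends on the length used, since over merged exons, all exons of a gene joined once, Ddx58 had 516 and Zbp1 538. Ifih1 was lowest of the 4 with either length, while Dhx58 had a lower mean before division, 1200 against 1431.

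Both transcription factors were in the top 10% of genes. Irf7, the factor that amplifies interferon production (chr7:141262706-141266481), had a mean of 6153 and 1899 per kilobase. Irf9, the DNA-binding subunit of ISGF3 (chr14:55603571-55610030), had a mean of 3970 and 1026 per kilobase.

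Among the IFIT proteins, IFIT1 binds viral RNA that lacks the cap methylation of host mRNA. The 4 IFIT genes of the list lie on the same strand of chromosome 19, from 34550694 to 34650009. Here and below, a neighbour is the next gene of the list within 300 kb. Genes outside the list that may lie between were not considered. In the order of the genome, Ifit2 had 262 per kilobase, Ifit3 1474, Ifit3b 611 and Ifit1 653. Ifit3 was 5.63 times its neighbour Ifit2 and 2.41 times Ifit3b, while Ifit1 was 1.07 times Ifit3b. The ratio of Ifit3 to Ifit3b rests on how reads were divided between near-identical sequences. Of the distinct 50-base words in the transcripts of Ifit3, 51.2% also occurred in another gene, mainly Ifit3b, and of those of Ifit3b 45.0%. Their promoter stretches, printed above, were identical.

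The OAS proteins make 2′-5′ oligoadenylate, which activates RNase L, and PKR, the product of Eif2ak2, is a kinase that stops translation when it binds double-stranded RNA. Oas3 had a mean of 10275 and 2177 per kilobase, Oas1a 1174 per kilobase, Oas2 1030 and Oas1g 327. These 4 genes lie together on chr5:120730333-120907521. Oasl2 had 2374 per kilobase and its neighbour Oasl1, a translational inhibitor of Irf7, had 1023, a ratio of 2.32 that was 1.36 over merged exons. Eif2ak2 had 412. Oas1a was 3.59 times Oas1g, but 57.6% of the 50-base words of Oas1a and 45.7% of those of Oas1g were shared with other genes, so that this ratio is uncertain as well.

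ISG15 is a ubiquitin-like protein that is joined to other proteins after interferon. Isg15, whose promoter held the 3 overlapping cores, had a mean of 1159 and, with a transcript of 756 bases, 1533 per kilobase. Usp18, the protease that removes ISG15 and also restrains the interferon receptor, had 395 per kilobase. Herc6, the main ISG15 ligase of the mouse, had 220. Isg15 therefore had the highest level per kilobase of these 3 genes. Before division by length the means were closer, with 1047 for Herc6 and 699 for Usp18. Other genes of the ISG15 system were not looked up.

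Among the other antiviral effectors, Ifitm3, a membrane protein that blocks entry of viruses from endosomes (chr7:141009586-141010770), had the highest level of all 38, with a mean of 9340 over a transcript of 678 bases. Samd9l, a restriction factor of poxviruses that limits translation, had 2457 per kilobase and the highest mean before division by length. Rtp4, which in other tissue escorts receptors to the surface and also restrains interferon signalling, had 1463. Rsad2, which encodes viperin, the enzyme that makes a chain-terminating nucleotide, had 986 per kilobase, and Cmpk2, the nucleotide kinase gene 12752 bases away on the opposite strand, had 1129, an order that turned over merged exons (953 and 888). Bst2, which encodes tetherin, had 1031 and Isg20, an exonuclease of RNA, 902.

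The Mx genes were at the low end. Mx1 and Mx2 encode dynamin-like GTPases that trap viral nucleocapsids, and both carry inactivating mutations in many inbred laboratory strains. Whether such mutations bear on the levels here was not tested. Mx1 had a mean of 341 and 101 per kilobase, and Mx2 89.0 and 35.9, so that Mx1 was 2.80 times its neighbour. Mx2 was at percentile 54.5 of all genes and Mx1 at percentile 66.2, close to Ifi44 at percentile 68.4. Over merged exons Mx1 had 90.1 per kilobase and Ifi44 79.2.

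The Schlafen, PARP and TRIM genes ranged from 504 to 2048 per kilobase. Slfn5 had 815 per kilobase and its neighbour Slfn8 624; both belong to the Schlafen family, of which some members cleave tRNA. Parp14, a mono-ADP-ribosyltransferase, had 785 and Parp9, which acts with the ubiquitin ligase DTX3L, 504. Trim30a, a TRIM protein that restrains Toll-like receptor signalling, was the highest of the 5 with 2048. Among genes with a less defined role, Ifi27l2a, which encodes a small membrane protein, had 10072 per kilobase, the next after Ifitm3. Ifi35 had 594, Xaf1, a binding partner of the apoptosis inhibitor XIAP, 249, and Ifi44 119.

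The genome position gives the list some structure. The 38 genes lie on 13 chromosomes, and 20 of them lie within 300 kb of another. In the 12 neighbouring pairs the higher gene was between 1.07 and 7.25 times the lower per kilobase. The most equal pair was Ifit3b with Ifit1 and the most unequal was Ifitm3 with Irf7, 251936 bases apart.

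Sequence shared with other genes limits how far some of these levels can be trusted, since the authors' program divided reads that fit several genes by estimate. Over 10% of the distinct 50-base words were shared in 8 of the 38 genes. Beyond the Ifit3 and Oas1 pairs these were Slfn8 with 14.6%, mainly with Slfn10-ps, Herc6 with 12.5%, mainly with Gm45193, and Rtp4 with 11.6%, mainly with Gm45338. The last was Ifitm3, just past this limit, whose largest share with a single gene was 4.61%, with Gm7676. Another 22 genes shared under 1% and 15 of these shared none.

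**Figure D3:**
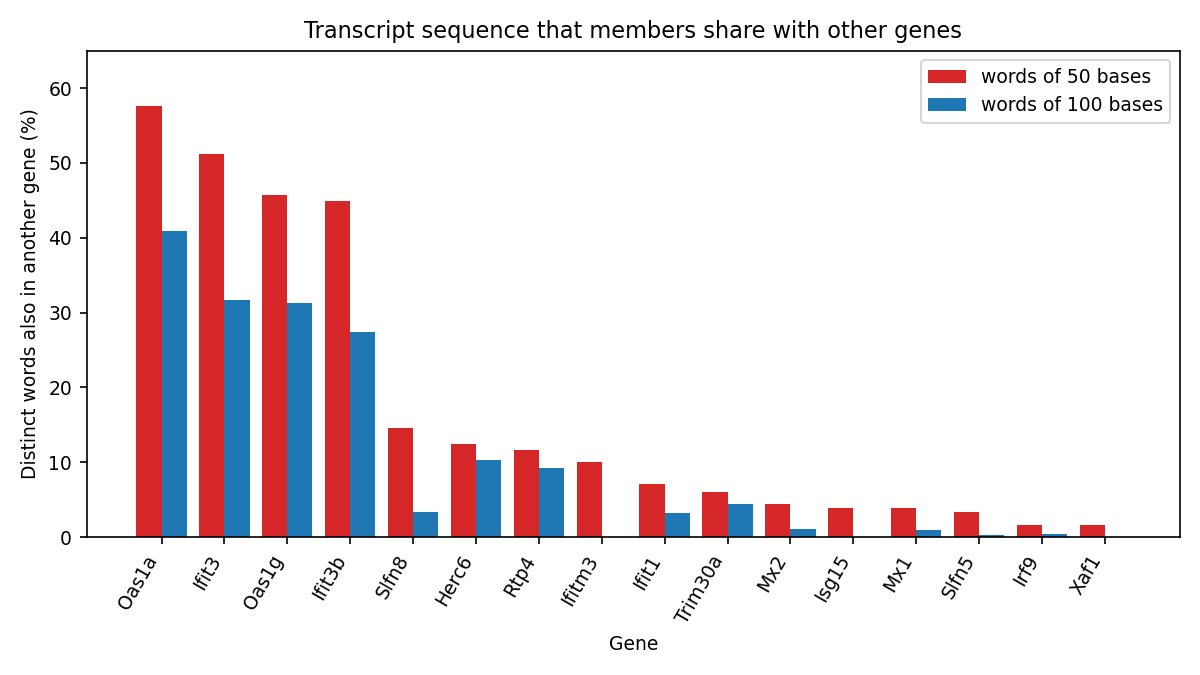
Percent of the distinct 50-base (red) and 100-base (blue) words of a gene's annotated transcripts that also occur in transcripts of another gene, for the interferon-stimulated genes with the largest shares. Oas1a, Ifit3, Oas1g and Ifit3b stand apart, from 57.6% to 45.0% at 50 bases.

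The receptor and signalling genes named below had a row, while most of the interferon genes searched did not. Interferon genes outside the 10 below were not searched. Of 10 interferon genes searched by symbol (Ifnb1, Ifna1, Ifna2, Ifna4, Ifna5, Ifnk, Ifne, Ifng, Ifnl2 and Ifnl3), only Ifng, the type II interferon made mainly by T and NK cells, had a row, with a mean of 6.50. All genes among the lowest means had counts in at least 2 libraries, so a gene with no row may have had no count or been left out. The receptor genes Ifnar1 and Ifnar2 had 874 and 1003 per kilobase. The kinases Jak1 and Tyk2 had 2754 and 372, and Stat2, a partner of Irf9 in ISGF3, had 553.

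Among the interferon regulatory factors outside the list, Irf1, a factor induced by both interferon types, had 3278 per kilobase and Irf8, a factor of monocyte development, 994. The 11 genes listed as negative regulators were Socs1, Socs3, Ptpn6, Ptpn2, Pias1, Trex1, Adar, Samhd1, Rnaseh2a, Rnaseh2b and Rnaseh2c. They had a median of 679 and ranged from 52.7 for Rnaseh2b to 7649 for Ptpn6, the phosphatase SHP-1. Socs1, the feedback inhibitor of JAK kinases, had 58.8, and Samhd1, a dNTP hydrolase, 7216.

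The 12 adaptors and kinases of nucleic-acid sensing had a median of 328. Myd88, the adaptor of most Toll-like receptors, had 2281, Tmem173, which encodes STING, 391, Mavs, the adaptor of RIG-I and MDA5, 185, and Mb21d1, which encodes cGAS, 49.4. The 14 genes of a list induced by interferon gamma had a median of 259, under that of the type I list. Whether type I interferon induces them as well was not examined, so the medians give no contrast between the interferon types. Gbp2, a GTPase against intracellular microbes, had 1102 per kilobase, Cxcl9 and Cxcl10, chemokines that attract T cells, 123 and 98.8, and Cxcl11 and Nos2 0.781 and 0.755.

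**Figure D4:**
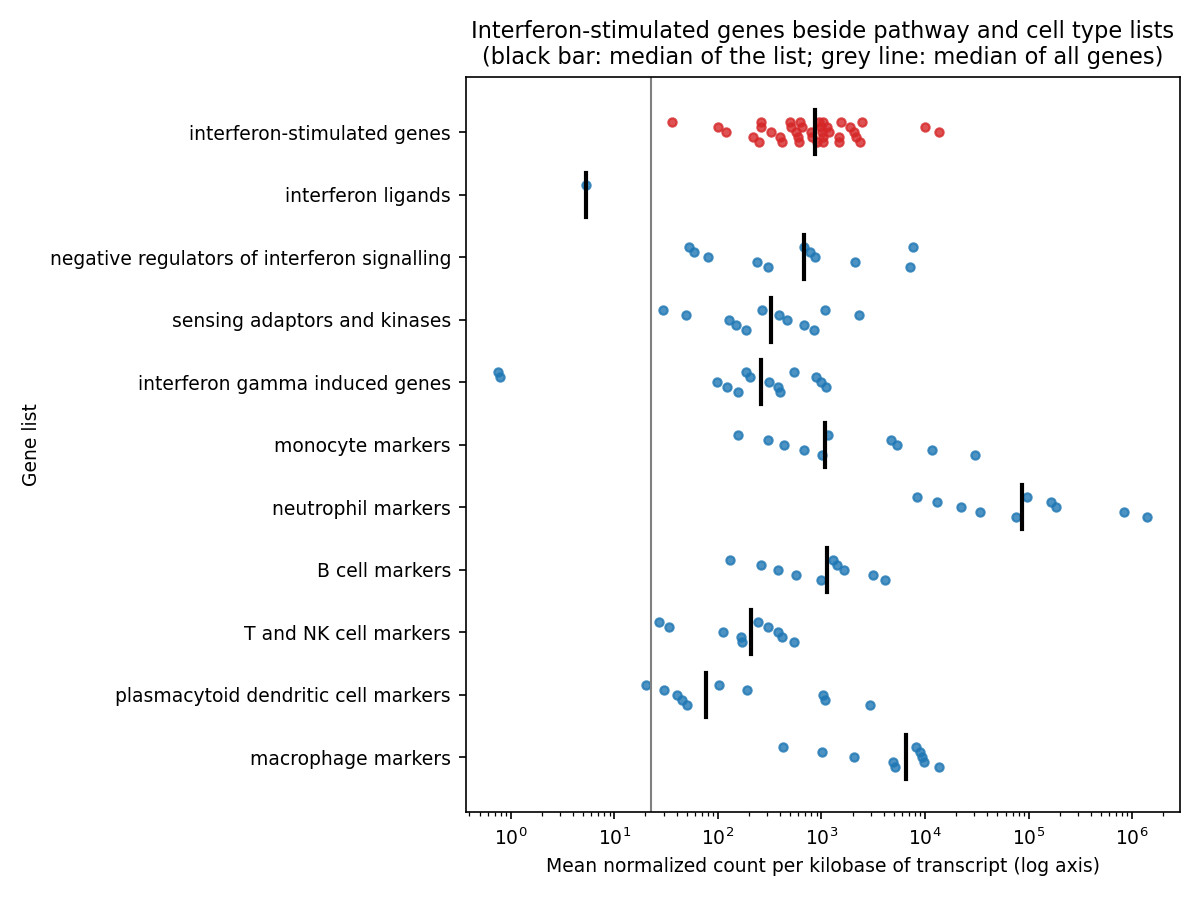
Mean normalized count per kilobase of transcript (log axis) for each listed gene of the interferon-stimulated list (red) and of 10 pathway and cell type lists (blue); black bars are list medians and the grey line is the median of all genes (22.5). The interferon-stimulated genes (median 859) lie above the sensing adaptors and kinases (328) in median and far below the neutrophil markers (85972).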

How the data were processed

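The authors removed adapters (cutadapt 1.14), mapped to mm10 using STAR 2.5.2b in 2-pass mode, estimated counts with RSEM 1.3.0 and GENCODE M12 and compared groups with DESeq2 1.20.0. The deposited table holds, per gene, a mean signal, which is the authors' average over libraries of counts divided by size factors, and 6 columns of their comparison (log2 fold change, its standard error, test statistic, p-value, adjusted p-value and fold change), which were not used. The depth of each library is unknown from the table. The count test that the design would call for needs values per sample, and none was run.

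The list members and pathway lists were chosen with earlier results of these data known. No gene was selected by a measured value: all 38 members and the genes of the fixed lists are eligible to be named, except that some results for 2 of the lists are not reported here. Whole-read sums were searched below a mean of 0.8, and all 2884 such genes were solved with 8 libraries within a tolerance of 3e-09. The comparison of assumed library numbers used a wider tolerance. Positions, lengths and shared words came from GENCODE M21, on the same genome build as mm10, which held 23004 of the 23084 identifiers. Promoter sequences came from RefSeq (GRCm38.p6), matched by symbol. Where a symbol had more than 1 row, as 28 did, the row with the higher mean was used. The solving of steps and the motif search were tested on simulated data. Python 3.11.15, pandas 2.3.3, numpy 2.4.6 and matplotlib 3.10.9 were used.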

Additional observations from a re-analysis of the deposited data

How the results depend on the processing

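All 38 genes kept a mean of at least 10, and all 38 stayed above the median with the length of the merged exons or with no division by length; 35 did so against genes with a mean of at least 10, and 37 against protein-coding genes. The share of the summed mean was 0.496% of protein-coding genes and 0.427% without Samd9l, against 0.479%. Over merged exons, a length applied to single genes and pairs after seeing the data, 7 genes fell by over 1.5 times, namely Ddx58 to 516 per kilobase, Herc6 to 113, Ifi44 to 79.2, Isg20 to 527, Oasl2 to 1163, Usp18 to 250 and Xaf1 to 138. Cmpk2 was then 0.932 times Rsad2 and Oasl2 1.36 times Oasl1, while the higher gene stayed the same in the other pairs. The response element core was in 26 of the 28 genes when 1 mismatch was allowed, but then also in 38.9% of all genes. It was in 18 with 3 free bases allowed as well (6.90% of all genes) and in 12 before the start alone (3.46%). With words of 100 bases, an alternative chosen after seeing the data, 5 genes in place of 8 shared over 10%. Values per library could not be solved, so the planned ratio of the highest to the lowest library, its alternatives and leaving out libraries were not run. No paired analysis was possible because only a pooled mean is given per gene and no result comes from a test. The pooled mean, the unknown spread between libraries and the choice of transcript length limit every level.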
